A study of Rattus norvegicus with 4 samples.

Results

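Claudins are 4-pass membrane proteins that set how tightly neighbouring cells are sealed, and 10 genes of the tight junction and its epithelial partners were followed here across the cell types of the rat anterior pituitary gland: *Cldn1*, *Cldn3*, *Cldn4*, *Cldn5*, *Cldn7*, *Cldn9*, *Cldn12*, *Ocln*, *Tjp1* and *Epcam*. They were taken by symbol from the 30058 genes of the count table, and each matched 1 row. Single-cell RNA sequencing (10X Genomics, 3′ chemistry) had been run on dispersed anterior pituitary cells of postpubertal Sprague Dawley rats. The female cells came from 4 pituitaries of animals in diestrus on postnatal day 44, and the male cells from 4 pituitaries of animals on postnatal day 59. Each sex was 1 pool loaded on 2 lanes, so the lanes of a sex were technical replicates, and no value below carries a spread between animals. Sex, pool and age cannot be told apart.

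A tight junction is built from claudins, which form the strands and decide their permeability, from occludin (*Ocln*), a further membrane protein of the strand, and from scaffolds such as ZO-1 (*Tjp1*), which tie the strand to the actin cytoskeleton. Different claudins are typical of different barriers: *Cldn3*, *Cldn4* and *Cldn7* are known from simple epithelia, *Cldn1* from the epidermis, *Cldn5* from the endothelium of the blood-brain barrier and *Cldn9* from the inner ear. EpCAM, the product of *Epcam*, is an epithelial adhesion molecule that binds claudin-7. In the pituitary, the folliculostellate cells are known to surround small follicles that are sealed by junctions, while the fenestrated capillaries of the gland are known for their leakiness.

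The table held 86742346 unique molecular identifiers (UMIs, each standing for 1 captured RNA molecule) in 7861 cells, with 18955509 to 24048021 per lane. Of these cells, 6857 were kept and assigned by the study's marker genes to folliculostellate cells (FSC, 2322 cells), corticotrophs (C, 792), gonadotrophs (G, 239), thyrotrophs (T, 88), somatotrophs (S, 1889), lactotrophs (L, 485), leukocytes (Le, 548), endothelial cells (EC, 133) and erythrocytes (E, 361). C, G, T, S and L are the hormone-producing cells (HPC), and HPC and FSC together are the pituitary cells. The 4 lanes were tied to a sex through the number of cells in each, and the Y-linked genes *Eif2s3y* and *Ddx3y* gave 9 and 10 UMIs in the female lanes and 2049 and 2114 in the male lanes. None of the 10 genes was among the markers used for assignment. A set of 30 barcode sequences occurred in more than 1 lane (60 cells). Median depth differed between the types, from 6500 UMIs in Le and 6908 in FSC to 13650 in S, so levels are given in CPM, the UMIs of a gene in a type and lane scaled to 1000000 UMIs in all. Because the reads come from the 3′ end of each RNA, levels are compared between cell types and not between genes.

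*Epcam* was detected in every pituitary type. Its level was 454, 400, 375 and 329 CPM in FSC in the 2 female and 2 male lanes, 165, 177, 189 and 175 in C, and 322, 312, 365 and 351 in S. In G it was 349, 323, 485 and 491, in T 441, 413, 318 and 347, and in L 207, 179, 626 and 704. By the mean of the lanes the order was L, G, FSC, T, S and C, but only the step from S down to C lay outside the overlap of the lanes. The order depended on hormone RNA, which took 27.7 to 31.5% of UMIs in S and 0.474 to 0.784% in FSC. With 7 hormone and 4 globin genes left out of the totals, the order was L, S, G, T, FSC and C. The means were then 549, 482, 472, 444, 392 and 223 CPM. *Epcam* was near the floor of the measurement in non-pituitary cells, with 15 UMIs in all Le and 6 in all EC. It was expressed above threshold in 82.0% of G (exact 95% interval 76.5 to 86.7), 76.1% of S, 76.1% of T, 72.8% of L, 51.0% of C and 40.4% of FSC, against 1.46% of Le. The threshold is a cut on the log scale that splits a gene's values over all cells (Otsu's method).

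FSC stood out in how unevenly *Epcam* was spread over cells. No *Epcam* UMI was found in 53.4% of FSC, while 23.4% held 5 or more and the richest cell held 76. In S, 9.90% of cells held none and the richest held 20, and in C, 15.9% held none and the richest held 11. FSC were sampled less deeply than S and C. When every cell was thinned to 2000 UMIs at random, at least 1 *Epcam* UMI was left in 32% of FSC, 29% of C and 47.2% of S.

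**Figure D1:**
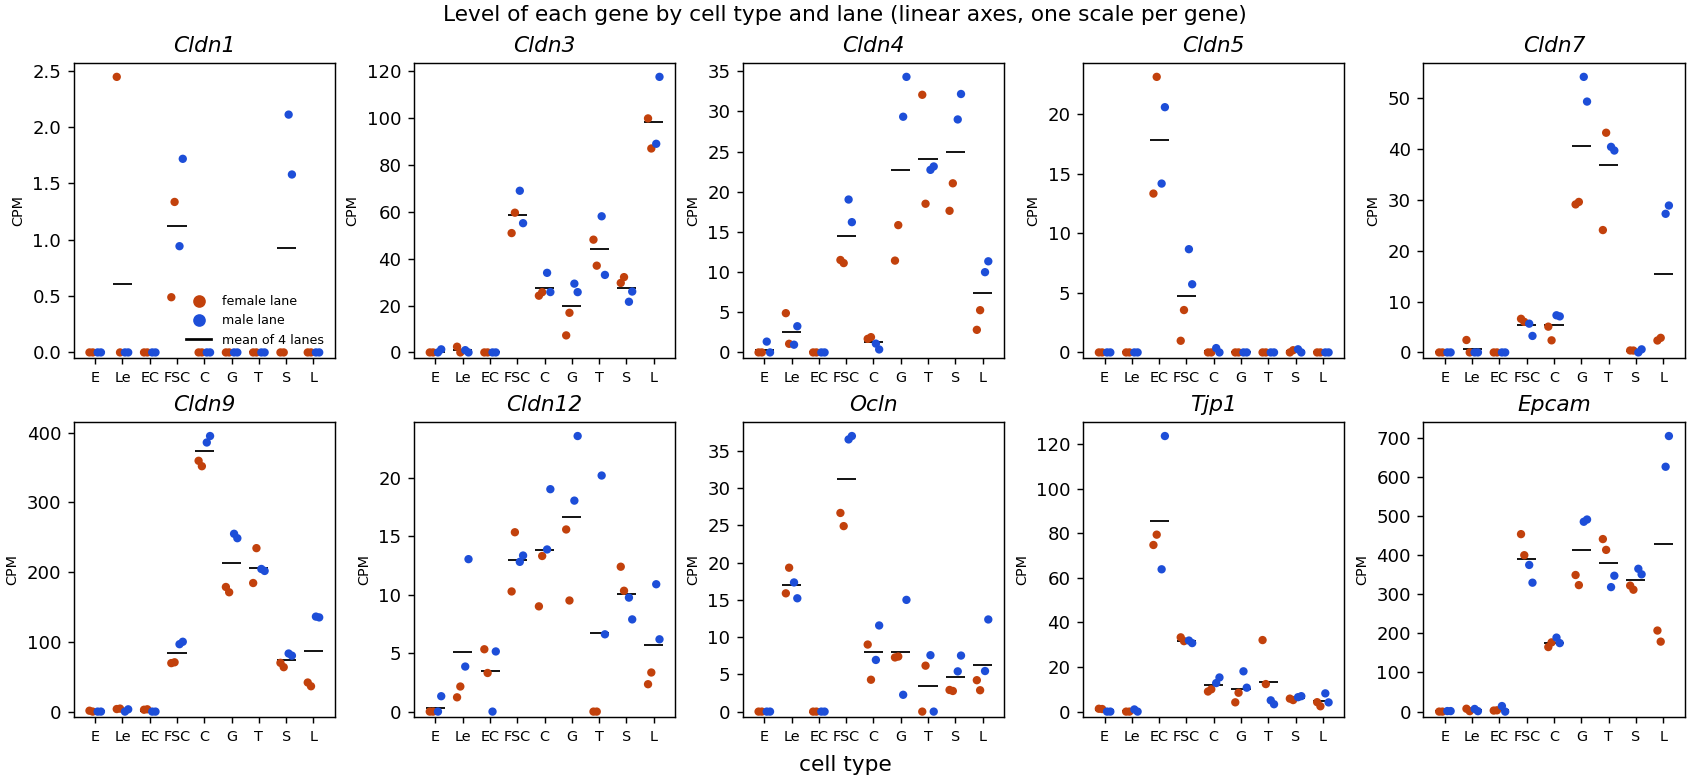
Level of each gene by cell type. Each panel shows 1 gene, with the cell types on the x axis, CPM on a linear y axis drawn from just below 0, 1 point per lane (2 female, 2 male) and a line at the mean of the lanes; *Cldn9* stands highest in C (352 to 395), *Cldn3* in L (87.0 to 118), *Ocln* in FSC (24.9 to 37.0) and *Tjp1* in EC (63.8 to 124).

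Each of the claudins with an epithelial background had its own order of cell types. *Cldn9* was highest in C, with 360, 352, 386 and 395 CPM in the 4 lanes, and every C lane lay above every lane of the next types. G followed with 179, 171, 255 and 249 and T with 184, 234, 205 and 202, and these overlapped. L (41.7, 36.3, 136 and 135), FSC (69.5, 70.7, 96.7 and 100.2) and S (69.9, 63.7, 83.3 and 80.2) formed a lower group that also overlapped. With hormone and globin genes left out of the totals, the mean was 106 in S and 84.8 in FSC, and these still overlapped. *Cldn9* was expressed in 91.9% of C (89.8 to 93.7) and in 28.3% of FSC, the lowest share among the pituitary types, against 1.46% of Le. *Cldn9* lies next to *Cldn6* in the RefSeq gene table, and reads beyond the end of the one could have been counted for the other. *Cldn6* had 13 UMIs in C, where *Cldn9* had 3495. The *Cldn6* count would also be low if its reads had been counted for *Cldn9*, and this was not tested.

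*Cldn3* was highest in L, at 99.8, 87.0, 89.0 and 118 CPM. FSC came next with 50.9, 59.6, 69.0 and 55.1, below every L lane. T, C, S and G had means of 44.1, 27.4, 27.3 and 19.8, and each overlapped its neighbour in this order. *Cldn3* was expressed in 49.9% of L (45.4 to 54.4) and in 12.6 to 26.1% of the other pituitary types, and only 3 UMIs were found in all Le and 0 in all EC.

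*Cldn4* and *Cldn7* separated S, G and T from C in different ways. *Cldn4* had 17.6, 21.1, 29.0 and 32.2 CPM in S, 32.1, 18.5, 22.7 and 23.1 in T, and 11.4, 15.8, 29.3 and 34.3 in G, and these 3 types overlapped. In C it had 11 UMIs in all, a mean of 1.27 CPM that lay below the 2.55 of Le, so C cannot be told from background. *Cldn7* was highest in G (29.1, 29.6, 54.2 and 49.3) and T (24.1, 43.2, 40.4 and 39.7), which overlapped. In S it was almost missing, with 9 UMIs in 1889 cells, or 0.318% of cells expressing it against 0.365% of Le. S therefore carried *Cldn4* with *Cldn7* at background, while C carried *Cldn7* in 5.05% of cells with *Cldn4* in 1.26%.

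The plaque and strand genes *Ocln* and *Tjp1* were not highest in an HPC type. *Ocln* was highest in FSC at 26.7, 24.9, 36.6 and 37.0 CPM, followed without overlap by Le at 15.9, 19.3, 17.3 and 15.2. The HPC types had means of 3.44 to 7.98, and EC had 0 UMIs. *Ocln* was expressed in 17.6% of FSC, 10.2% of Le and 4.02 to 8.71% of HPC types. *Tjp1* was highest in EC at 74.7, 79.3, 63.8 and 124, and next in FSC at 33.3, 31.6, 31.8 and 30.7. It was expressed in 40.6% of EC (32.2 to 49.5) and 19.2% of FSC, against 0.182% of Le and 3.71 to 12.2% of HPC types.

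*Cldn12*, a claudin without the usual scaffold-binding tail, differed little between neighbouring types. Its means ran from 16.7 CPM in G and 13.8 in C through 12.9 in FSC and 10.1 in S to 5.07 in Le and 3.45 in EC, and each type overlapped the next. Every lane of G, C, FSC and S lay above every lane of EC (0 to 5.33).

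*Cldn5* and *Cldn1* were rare. *Cldn5* had 120 UMIs in all final cells. EC had the highest level (13.3, 23.1, 14.2 and 20.6 CPM), but this rested on 20 UMIs in 7 of 133 cells, and 1 female EC held 6 of them. FSC held 96 *Cldn5* UMIs, 20 in 17 of 1156 female cells and 76 in 62 of 1166 male cells, and all HPC together held 4. *Cldn1* had 53 UMIs, of which 22 were in FSC and 29 in S. The 29 in S were all in male cells.

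The mean of the pituitary types was then compared with the mean of Le and EC. A gene called in this way need not be higher in each pituitary type. The UMIs of each type were added up for each sex and tested with edgeR's quasi-likelihood test at an adjusted p limit of 0.001 over all genes. Of the 10 genes, 9 were tested (*Cldn1* had too few UMIs). Over all 13628 genes tested, 14.0% were higher in the pituitary mean and 15.3% were lower. *Epcam*, *Cldn9*, *Cldn3* and *Cldn4* were called higher. By level, *Cldn4* in C (1.27 CPM) lay below its mean in Le (2.55), and *Cldn7* in S (0.341) lay below its mean in Le (0.611). The *Cldn4* call was lost with cells thinned to 2000 UMIs (edgeR adjusted p = 0.0101). The 4 genes called passed the filter on low counts through the pituitary sums and not through those of Le and EC. The number called is therefore no support, and no p is given for these calls. *Epcam* (log2 fold change 6.07 ± 0.29 SE) and *Cldn9* (5.90 ± 0.33) had UMIs in both Le and EC. *Cldn3* and *Cldn4* had 0 UMIs in EC, so no fitted fold is given for them. Against the limit that 3 UMIs in the EC sum would give (2.60 CPM), the pooled pituitary types were at least 16.6-fold higher for *Cldn3*, at least 6.52-fold higher for *Cldn4* and at least 2.21-fold higher for *Cldn7*. *Cldn7*, also in the test only through the pituitary sums, did not pass the limit (edgeR adjusted p = 0.00292). With sums per lane it passed, but lanes are technical replicates, so these sums add no independent pool.

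EC were also compared with the mean of the 7 other types (12.5% of all genes higher, 5.07% lower). The EC sums were part of the comparison above, so a gene low in EC there is not a separate result here. *Tjp1* was higher in EC with a log2 fold change of 3.40 ± 0.29 (edgeR adjusted p = 1.11e-07). *Cldn5* was called higher too, but it passed the filter only through the EC sums, so its 20 UMIs in EC are given above as a description. Called lower in EC were *Epcam* (−5.44 ± 0.44), *Cldn9* (−5.86 ± 0.57), *Cldn3* and *Ocln*. All of these passed the filter only through the other types, so no p is given for the calls. The *Ocln* call was lost without any 1 of the 4 lanes (edgeR adjusted p = 0.00147 to 0.00828). Against the same floor, *Ocln* was at least 12.2-fold higher in FSC than in EC.

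FSC were compared with the mean of the 5 HPC types. In this contrast 17.7% of all genes were higher and 8.86% were lower. *Ocln* was higher in FSC (2.15 ± 0.22, edgeR adjusted p = 1.07e-06), and *Tjp1* was higher (1.76 ± 0.23, edgeR adjusted p = 1.19e-05). *Cldn5* was in the test through its level in EC and was called higher, with 96 UMIs in FSC and 4 in all HPC, of which G, T and L had 0. *Cldn9* was lower (−1.17 ± 0.22, edgeR adjusted p = 0.000384), a call that was lost with library sizes in place of TMM factors (−0.92, edgeR adjusted p = 0.0142). The median of all genes tested was 0.11. *Epcam* had a log2 fold change of 0.02 ± 0.20 (edgeR adjusted p = 0.954), and *Cldn3*, *Cldn4*, *Cldn7* and *Cldn12* did not pass the limit either (−0.77 to 0.42).

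**Figure D2:**
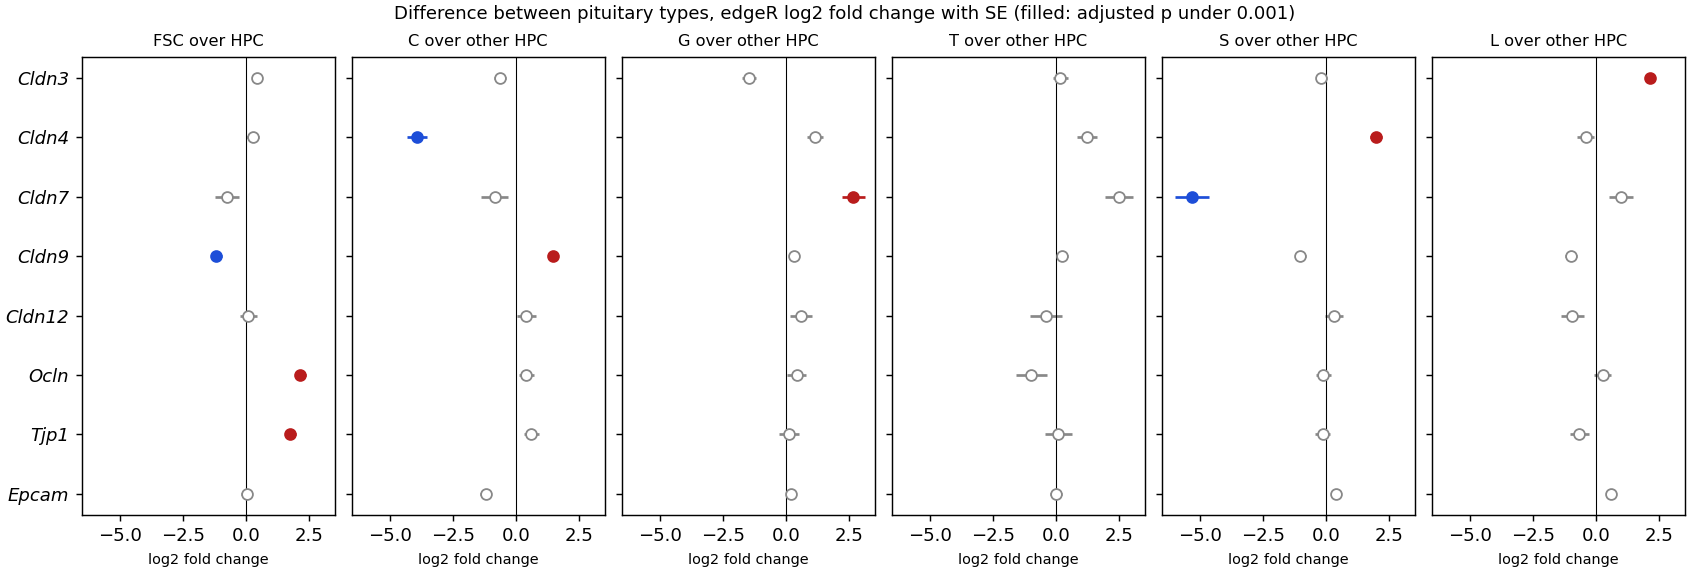
Differences between cell types for 8 genes. Each contrast is against a mean of types, and by level *Cldn4* in S overlapped T and G, as *Cldn7* in G overlapped T. The x axis gives the log2 fold change with its standard error for FSC over HPC and for each HPC type over the other 4, and filled points passed an edgeR adjusted p of 0.001; *Cldn9* is to the right in C (1.46), *Cldn3* in L (2.13), *Cldn4* in S (1.96) and *Cldn7* in G (2.67), and *Cldn1* and *Cldn5* are not shown because of types at 0 UMIs.

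Among the HPC, 4 claudins each had a different type in which they were higher than in the mean of the other 4 types. A type called in this way need not differ from each of the other 4. In C (5.98% of all genes called), *Cldn9* was higher (1.46 ± 0.19, edgeR adjusted p = 5.96e-05), while *Epcam* stood at −1.20 ± 0.23 without passing (edgeR adjusted p = 0.00137). *Cldn4* was called lower on 11 UMIs in C. It passed the filter only through the other types, so no p is given. In S (3.42% called), *Cldn4* was higher (1.96 ± 0.24, edgeR adjusted p = 7.17e-05), a call lost with library sizes alone (1.64, edgeR adjusted p = 0.0014). *Cldn7* was called lower on 9 UMIs in S, again in the test only through the other types, so no p is given. In L (3.54% called), *Cldn3* was the gene called (2.13 ± 0.20, edgeR adjusted p = 4.86e-06). In G (3.79% called) it was *Cldn7* (2.67 ± 0.44, edgeR adjusted p = 0.000715), a call lost without the male lane of 2047 cells (2.54, edgeR adjusted p = 0.00106). In T (0.734% called), 0 of 9 genes passed edgeR's limit, 2 had an unadjusted p under 0.05, and DESeq2 also called 0. *Cldn7* in T had a log2 fold change of 2.50 ± 0.55 (edgeR adjusted p = 0.0167), close to its value in G, and T had the fewest cells. The difference between G and T was not tested. By level, *Cldn4* in S (mean 25.0 CPM) overlapped T (24.1) and G (22.7), and these pairs were not tested either.

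The number of these genes seen in a cell was compared after thinning every cell to 2000 UMIs. A mean of 1.07 of the 10 genes was then detected per G cell, 0.955 per T, 0.952 per C, 0.940 per L, 0.743 per S and 0.698 per FSC, against 0.135 per EC and 0.0675 per Le. Without thinning, the means were 2.76, 2.58, 2.47, 2.44, 2.33 and 1.61 in the 6 pituitary types. At least 3 of the genes were left in 6.69% of thinned G, 5.08% of FSC, 4.95% of L, 4.55% of T, 2.15% of C and 1.01% of S.

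FSC are known to fall into more than 1 group, and they were divided by *Krt7*, a keratin of simple epithelia, and *Gpha2*, which encodes a subunit of thyrostimulin. Neither gene belongs to the junction genes. Both were chosen with earlier results of these data known, in which the *Krt7* group of FSC had already been linked to claudins. The tests between these groups are therefore a description and no independent support. Of 2322 FSC, 105 expressed *Krt7* and not *Gpha2*, 830 expressed *Gpha2* and not *Krt7*, 23 expressed both and 1364 expressed neither. Of the 105 *Krt7* cells, 77 held a single *Krt7* UMI, so cells without a detected *Krt7* UMI may belong with them. Median depths were 7228 and 7276 UMIs.

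*Epcam* was high in the *Krt7* group and low in the *Gpha2* group, with no overlap. In the 4 lanes it was 1476, 1094, 970 and 956 CPM in *Krt7* cells and 126.5, 98.4, 79.4 and 97.5 in *Gpha2* cells. The shares of cells expressing it were 98.1% (93.3 to 99.8) and 16.9% (14.4 to 19.6), and 49.5% in the cells with neither marker. In a fit with lane as a term, the log2 fold change was 3.43 ± 0.11 (edgeR adjusted p = 7.46e-19). For this test and the others between these groups, the p-value measures the error between lanes. The lanes of a sex are technical replicates of the same pool, so the p-value carries no spread between animals. 

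*Cldn3* had 181, 139, 181.5 and 159 CPM in *Krt7* cells and 4.17, 6.19, 5.21 and 15.8 in *Gpha2* cells. Its log2 fold change was 4.33 ± 0.26, and no p is given because it passed the filter on low counts only through the *Krt7* lanes. The groups did not overlap, and 52.4% of *Krt7* cells expressed *Cldn3* against 3.01% of *Gpha2* cells. *Cldn4* went the same way (3.69 ± 0.47, 21% against 1.57% of cells), again in the test only through the *Krt7* lanes. *Cldn9* was higher too (1.95 ± 0.17, edgeR adjusted p = 7.11e-10, 51.4% against 18.2%), as was *Ocln* (1.61 ± 0.28, edgeR adjusted p = 7.92e-05, 30.5% against 11.2%). *Cldn7* had too few UMIs for the test, with 14.3% of *Krt7* cells (8.22 to 22.5) and 0.602% of *Gpha2* cells (0.196 to 1.40) expressing it. *Tjp1* (−0.02 ± 0.35, edgeR adjusted p = 0.976) and *Cldn12* (0.09 ± 0.41, edgeR adjusted p = 0.925) did not pass the limit, and *Tjp1* was expressed in 18.1% and 17.2% of the groups.

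Over all 8300 genes tested between these groups, 3.02% were higher in *Krt7* FSC and 3.65% were lower, with a median of 0.0047. *Epcam*, *Cldn9* and *Ocln* passed the filter in both groups, but *Cldn3* and *Cldn4* passed it through the *Krt7* lanes alone, so the number of genes called is no support. Both were also called with no filter on low counts. The *Ocln* call was lost without the male lane of 2047 cells (1.28, edgeR adjusted p = 0.0127). In that lane the 4 HPC markers (*Resp18*, *Uchl1*, *Chgb*, *Scg2*) summed to 2615 CPM in *Krt7* cells, beside 123 to 178 in the other lanes and 142.5 to 212 in *Gpha2* cells, with none of the 4 at 0. When cells with more than 3 HPC marker UMIs were left out (89 of 105 and 778 of 830 cells kept), *Epcam*, *Cldn9* and *Ocln* were still called. *Cldn3* and *Cldn4* were called again too, which is no support given how they passed the filter. The FSC markers summed to 1490 to 2197 in *Krt7* cells and 3359 to 3741 in *Gpha2* cells. The Le markers were at 0 to 16.4 and 5.56 to 9.12 CPM with *Cd53* at 0 in the *Krt7* group, the EC markers at 0 to 4.11 and 1.75 to 10.4 with *Clec14a* and *Aplnr* at 0 in it, and the pericyte markers at 4.10 to 12.3 and 13.7 to 23.6 with *Lum* at 0 in it. Of the 5 posterior pituitary markers, *Lhx2*, *Nkx2-1*, *Gfap* and *Oxt* were at 0 in both groups. Cells that met the marker rules of Le, EC, pericytes or the posterior pituitary had been left out of FSC. Low values of these markers were thus partly fixed by the assignment.

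**Figure D3:**
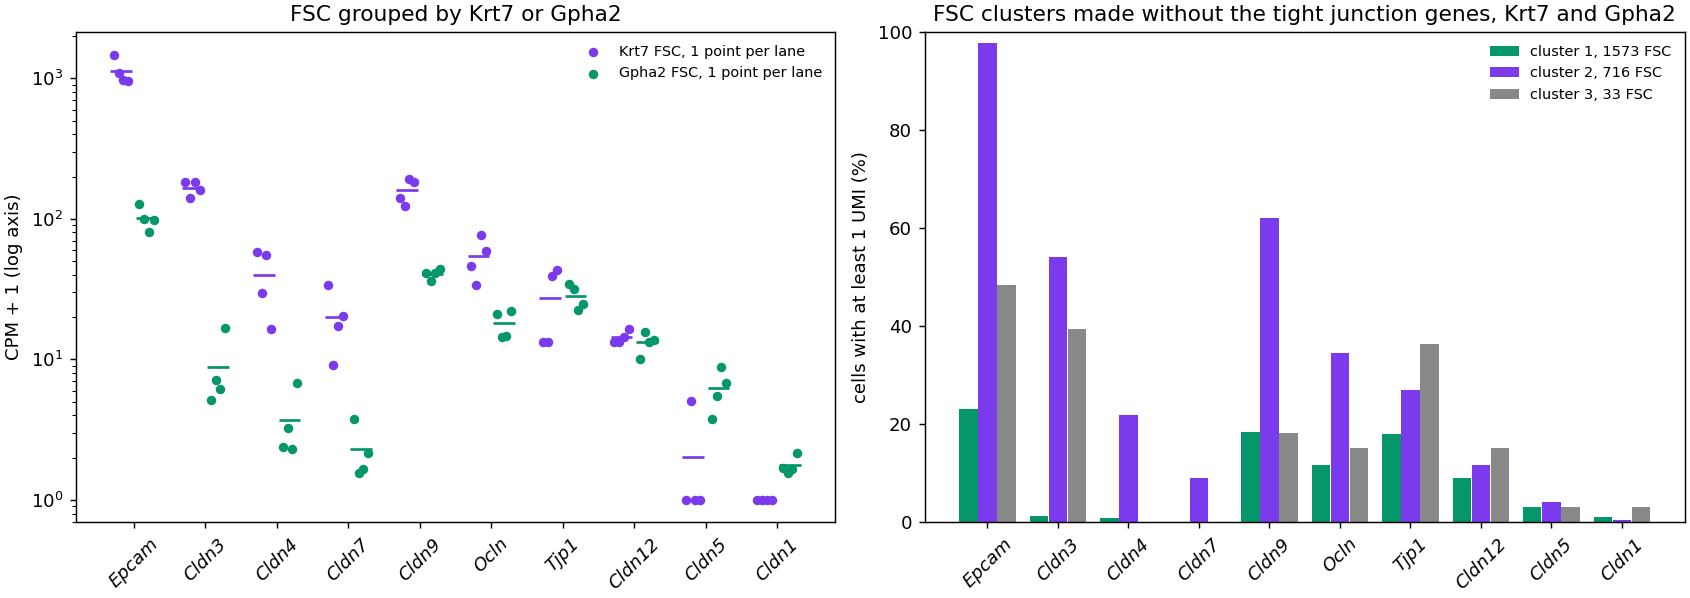
The junction genes in groups of FSC. On the left, CPM plus 1 on a log axis are shown per lane for *Krt7* and *Gpha2* FSC, with lines at the means, and on the right the percent of cells with at least 1 UMI is shown for 3 clusters of FSC; *Epcam* runs from 23.2% of cells in cluster 1 to 97.8% in cluster 2, while *Tjp1* runs from 18.1 to 36.4%.

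FSC were also clustered on 1000 variable genes from which the junction genes, *Krt7* and *Gpha2* had been removed. This gave 3 clusters, which are described without a test. Cluster 1 (1573 cells) held 777 of the 830 *Gpha2* cells, and cluster 2 (716 cells) held 100 of the 105 *Krt7* cells and was present in each lane with 167 to 195 cells. At least 1 *Epcam* UMI was found in 23.2% of cluster 1 and 97.8% of cluster 2. The corresponding shares were 1.34% and 54.1% for *Cldn3*, 0.763% and 21.9% for *Cldn4*, 0.0636% and 8.94% for *Cldn7*, 18.4% and 62.0% for *Cldn9*, and 11.7% and 34.5% for *Ocln*. *Tjp1* (18.1% and 27%), *Cldn12* (9.03% and 11.6%) and *Cldn5* (3.11% and 4.05%) differed less. The FSC markers summed to 3521 CPM in cluster 1 and 2111 in cluster 2, and the HPC markers to 168.5 and 383, and their part in these shares was not tested. The genes leading cluster 2 by fold were *Cldn3*, *Fam46b*, *Rab25*, LOC102548360, *Epcam*, *Cxcl14*, *Krt17*, *Krt18*, RGD1562658 and *Igfbpl1*. The study lists *Rab25* among the markers of all pituitary cells and *Cxcl14* as dominant in at least 1 HPC type. Those leading cluster 1 began with *Gpha2*, *Guca2b*, *Sparcl1* and *Apoe*.

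The junction genes also went together within FSC of like depth. Among 1081 FSC with an *Epcam* UMI (median 6890 UMIs) and 1241 without one (median 6920), *Cldn3* was detected in 37.7% and 1.13%, *Cldn4* in 15% and 0.564%, *Cldn9* in 49.6% and 16.4%, and *Ocln* in 27.7% and 11%. *Cldn7* was detected in 6.01% of the former and in none of the latter. *Tjp1* (25.5% and 17.2%), *Cldn12* (11% and 8.94%) and *Cldn5* (3.70% and 3.14%) showed smaller gaps. These cells come from 1 pool per sex and their shares are a description.

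Promoters of these genes from RefSeq (assembly GRCr8, 250 bases before to 50 after the start of the gene) are printed for the 4 members that hold an E-box, CACCTG or its reverse complement CAGGTG, the letters bound by the repressors SNAI1, SNAI2 and ZEB1 of epithelial genes. All 4 had a higher share of cells in the *Krt7* group. So had *Cldn12* (12.4% against 8.43% in the *Gpha2* group) and *Tjp1* (18.1% against 17.2%), which hold no E-box. *Cldn1* (0% against 0.602%) and *Cldn5* (0.952% against 3.01%), also without one, had a lower share. A link between E-boxes and these shares was not tested. The E-boxes are in capitals, each sequence is 5′ to 3′ on the strand of its gene, and of the 10 genes *Cldn4* and *Cldn9* had no entry.
Epcam, chr6:12649629-12649928, minus strand: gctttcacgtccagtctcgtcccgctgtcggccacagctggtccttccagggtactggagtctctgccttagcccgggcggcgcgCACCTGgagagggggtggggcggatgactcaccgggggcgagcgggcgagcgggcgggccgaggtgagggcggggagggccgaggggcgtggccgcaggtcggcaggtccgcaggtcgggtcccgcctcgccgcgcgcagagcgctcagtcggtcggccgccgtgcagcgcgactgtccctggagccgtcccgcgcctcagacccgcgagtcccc
Cldn3, chr12:27346498-27346797, minus strand: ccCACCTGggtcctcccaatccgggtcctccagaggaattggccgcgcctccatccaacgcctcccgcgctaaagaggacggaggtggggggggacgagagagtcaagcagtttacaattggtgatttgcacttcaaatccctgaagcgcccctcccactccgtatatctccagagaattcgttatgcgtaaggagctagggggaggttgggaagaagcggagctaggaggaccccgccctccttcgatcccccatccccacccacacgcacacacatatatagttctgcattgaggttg
Ocln, chr2:33441149-33441448, minus strand: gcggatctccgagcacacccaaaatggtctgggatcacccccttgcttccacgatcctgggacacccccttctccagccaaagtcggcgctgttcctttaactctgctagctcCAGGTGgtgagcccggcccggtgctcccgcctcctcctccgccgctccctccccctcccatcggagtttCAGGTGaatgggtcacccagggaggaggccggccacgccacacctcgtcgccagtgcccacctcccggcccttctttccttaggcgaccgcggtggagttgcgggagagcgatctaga
Cldn7, chr10:55188420-55188719, plus strand: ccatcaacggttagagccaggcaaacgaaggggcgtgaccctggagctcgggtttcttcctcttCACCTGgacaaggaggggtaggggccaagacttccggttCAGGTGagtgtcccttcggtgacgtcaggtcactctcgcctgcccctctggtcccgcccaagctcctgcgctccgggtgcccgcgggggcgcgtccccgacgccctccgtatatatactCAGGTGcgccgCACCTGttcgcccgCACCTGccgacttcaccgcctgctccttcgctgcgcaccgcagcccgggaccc

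*Cldn7* held 5 E-boxes, the nearest 3 bases before the start and the farthest 186. *Ocln* held 2, at 137 and 68 bases before it, *Epcam* held 1 at 165 and *Cldn3* held 1 at 248. On either strand, an E-box was present in 18.8% of all 33469 promoters and in 4 of the 8 members with an entry. Of the other motifs searched on both strands, GGGCGG (the GC box, 33.1% of promoters) was found in *Cldn1*, *Cldn3*, *Cldn5*, *Cldn7* and *Epcam*, CCAAT (37.5%) in *Cldn3* and *Cldn5*, AACCNGTT (the grainyhead-like motif, 2.1%) in *Tjp1*, TGANTCA (AP-1, 7.33%) in *Epcam* and TGACGTCA (the cyclic AMP response element, 1.83%) in *Cldn7*. TATAAA (14.2%), TGTTTAC (3.78%), TAATCC (7.17%) and GGTCA followed after any 3 bases by TGACC (0.0269%) were found in none of the 8. No motif searched contains another of them, and a match describes the letters alone.

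The female and male lanes were compared within each pituitary type. Here the p-value measures the error between lanes of 1 pool each. In L, 17.6% of 8629 genes were called in either direction, with a median log2 fold change of 0.02 over all of them, and *Epcam*, *Cldn9* and *Cldn7* were called higher in the male lanes. *Epcam* in L was 207 and 179 CPM in the female lanes and 626 and 704 in the male lanes (1.13 ± 0.09, edgeR adjusted p = 7.86e-15). *Cldn9* was 41.7 and 36.3 in female and 136 and 135 in male lanes (1.15 ± 0.15, edgeR adjusted p = 1.82e-08), and *Cldn7* was 2.34 and 2.87 in female and 27.2 and 28.9 in male lanes (2.75 ± 0.40). The lanes of the sexes did not overlap for any of the 3. *Cldn7* passed the filter on low counts only through the male lanes, so no edgeR p is given for it. Those lanes held 30 and 28 UMIs against 5 and 6 in the female lanes, and DESeq2 did not call *Cldn7* (2.78, adjusted p = 0.00253).

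The size of these differences in L depended on the scaling. *Prl* alone took 310200 to 319900 CPM in female L and 175000 to 183100 in male L, and the median depth of a cell was 18300 and 7254 UMIs. With library sizes in place of TMM factors the median of all genes moved to 0.67, and *Epcam*, *Cldn9* and *Cldn7* stood at 1.79, 1.80 and 3.40. *Cldn3* changed sign, from −0.52 with TMM factors (edgeR adjusted p = 0.00223, not called) to 0.14 with library sizes. The melanotroph markers *Pcsk2* and *Pax7* together were at 1.91 to 4.22 CPM in female L and 15.4 to 22.7 in male L, beside 994.5 in the melanotrophs, and the FSC markers were at 12.7 to 14.3 and 10.3 to 63.6. When L with a UMI of either melanotroph marker or more than 3 FSC marker UMIs were left out, *Epcam* (1.21) and *Cldn9* (1.18) were still called. *Cldn7* stood at 2.82, and its call is no support, since in all L it passed the filter only through the male lanes.

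**Figure D4:**
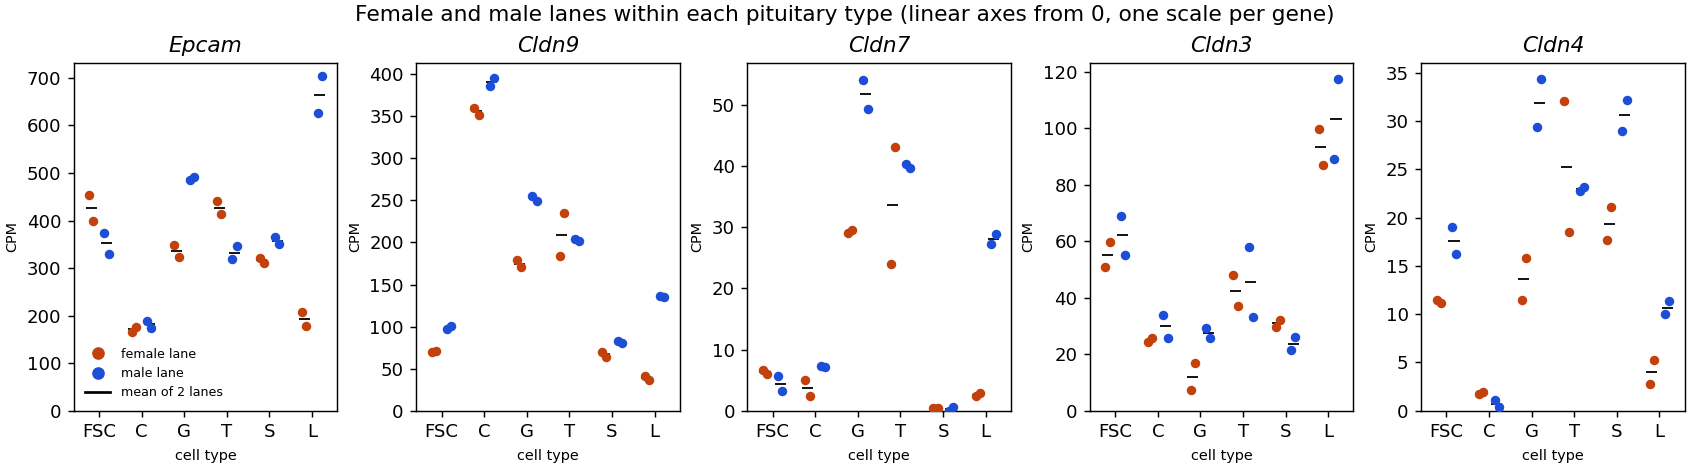
Female and male lanes in the 6 pituitary types. For 5 genes, CPM (y axis) are shown per lane by cell type (x axis) and sex, with lines at the means; in L the male lanes of *Epcam* (626 and 704) lie above the female lanes (207 and 179), while in C they lie close together (165 to 189).

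In FSC (3.36% of 12929 genes called), *Cldn9* was higher in the male lanes (96.7 and 100.2 against 69.5 and 70.7 CPM, 0.44 ± 0.08, edgeR adjusted p = 0.00079). It was not called without either male lane (edgeR adjusted p = 0.00757 and 0.0257) or by DESeq2 (adjusted p = 0.0833). Without the female lane of 1861 cells, 3 genes were called, *Cldn9*, *Cldn5* (2.81, edgeR adjusted p = 2.17e-05) and *Epcam*, which was lower in male FSC (−0.41, edgeR adjusted p = 3.04e-08). With all lanes, *Cldn5* in FSC stood at 0.979 and 3.56 CPM in female and 8.67 and 5.72 in male lanes (1.58 ± 0.41, edgeR adjusted p = 0.015), and *Epcam* at −0.32 ± 0.06 (edgeR adjusted p = 0.00227).

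In S (10.1% of 11928 genes called), *Cldn4* was higher in the male lanes, at 29.0 and 32.2 CPM in male and 17.6 and 21.1 in female lanes (0.60 ± 0.12, edgeR adjusted p = 0.000443). The call was lost without the female lane of 1868 cells (0.46, edgeR adjusted p = 0.024), without the male lane of 2085 cells (0.53, edgeR adjusted p = 0.00411) and in DESeq2 (adjusted p = 0.082). *Cldn1* was found in 28 of 1012 male S and 0 of 877 female S. It was called, but it passed the filter only through the male lanes, so no p is given. Against 3 UMIs in the whole female sum (0.284 CPM), male S at 1.83 CPM (29 UMIs) was 6.46-fold higher, a value that leaves out the counting error of the male UMIs. S were deeper in males (medians of 15450 and 11560 UMIs), and *Cldn1* in all S (1.48% of cells, 0.987 to 2.14) was not separated from Le (0.365%, 0.0442 to 1.31). That share takes in the 877 female S without a *Cldn1* UMI. Male S alone were not set against Le.

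In C (0.665% of 9927 genes called), G (4.94% of 6923) and T (1.53% of 3195), edgeR called 0 of 7, 0 of 6 and 0 of 3 genes, with 1, 2 and 0 at an unadjusted p under 0.05, and DESeq2 also called 0 in each. *Cldn9* in C was 360 and 352 against 386 and 395 CPM (0.07 ± 0.06, edgeR adjusted p = 0.756). *Epcam* in G stood at 0.28 ± 0.11 (edgeR adjusted p = 0.114), and was called with library sizes alone (0.55, edgeR adjusted p = 0.00057), where the median of all genes moved to 0.28.

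Whether the male-female difference itself varied among the 6 types was tested with an interaction term (11.6% of 13543 genes called). It varied for *Epcam* (edgeR adjusted p = 9.64e-13), *Cldn9* (edgeR adjusted p = 1.01e-05) and *Cldn7* (edgeR adjusted p = 0.000299), 3 of the 9 genes tested. Without the female lane of 1861 cells *Epcam* was the 1 gene called. *Cldn7* was also not called without the other female lane (edgeR adjusted p = 0.0164) or the male lane of 2085 cells (edgeR adjusted p = 0.002), and *Cldn9* was not called without either male lane (edgeR adjusted p = 0.00152 and 0.00118).

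The members were set against a wider list of 82 genes of the junction, which contains them: claudins, other junction membrane proteins, plaque and scaffold proteins, polarity proteins and epithelial partners. In FSC over HPC, 29 of the 59 list genes tested were higher and 6 were lower, shares to be read beside the 17.7% and 8.86% of all genes. A gene of the list could pass the filter through the side where it was high, so these counts describe the genes tested and not the list. Besides the members, *Cldn10*, an ion-channel-forming claudin, had 1429 UMIs in FSC and 20 in all HPC, the junction membrane gene *Marveld3* had 1076 and 13, and *Ildr2*, of the tricellular angulins, had 307 and 4. *Amotl2* had 1827 UMIs in FSC and 100 in HPC, and *Cgnl1* (paracingulin) had 500 and 18. Lower in FSC were *Crb3*, an apical polarity protein (−2.00 ± 0.24, edgeR adjusted p = 7.32e-06), *Esrp1*, an epithelial splicing regulator (−1.35 ± 0.22, edgeR adjusted p = 0.000122), *Spint1* (−1.34 ± 0.19, edgeR adjusted p = 3.01e-05) and *Pard6a* (−2.58 ± 0.46, edgeR adjusted p = 0.000213).

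In pituitary cells over Le and EC, 16 of 59 were higher (14.0% of all genes) and 6 were lower (15.3%), and *Crb3*, *Esrp1* and the angulin genes *Lsr* and *Ildr1* joined *Cldn3* in having 0 UMIs in EC. *Lsr* had 2463 UMIs in the pituitary types. The 6 lower genes were led by *Esam* (429 UMIs in the 133 EC and 31 in pituitary cells), *Rab13* (−5.27 ± 0.19, edgeR adjusted p = 3.26e-12), *Jam2*, *F11r* (−1.42 ± 0.17, edgeR adjusted p = 4.84e-06) and *Magi1* (−1.30 ± 0.28, edgeR adjusted p = 0.000906). In EC over the other types, 14 were higher (12.5% of all genes) and 13 lower (5.07%), and *Esam*, *Cgnl1*, *Jam2* and *Rab13* (5.61 ± 0.20, edgeR adjusted p = 2.11e-12) stood beside *Cldn5* among those higher.

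Within the HPC, few genes of the list joined the members. *Cdh1* (E-cadherin) was higher in G (6.10 ± 0.43), with 151 UMIs in G and 1 to 9 in each other HPC type. In G, 2 of 59 genes were called, beside 3.79% of all genes. *Cgn* (cingulin) was higher in S (3.22 ± 0.46), with 163 UMIs in S and 1 to 5 in each other HPC type. In S, 2 list genes were higher and 1 lower, beside 3.42% of all genes. The list genes called numbered 5 in L (3.54% of all genes), 3 in C (5.98%) and 1 in T (0.734%). *Krt8* (1.89 ± 0.29, edgeR adjusted p = 0.000338) and *Krt18* (1.62 ± 0.26, edgeR adjusted p = 0.000555) were higher in L. *F11r* was lower in L (−1.65 ± 0.27, edgeR adjusted p = 0.000586), and *Krt18* was lower in T (−3.03 ± 0.46, edgeR adjusted p = 0.000983). *Rab13* was called higher in L (2.25 ± 0.39, 42 UMIs) and *Amotl2* in C (73 UMIs, with T at 0). No p is given for *Cdh1*, *Cgn*, *Rab13* and *Amotl2*. Among the HPC they may have passed the filter on low counts only through the type named. 

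Between the FSC groups, 18 of 44 list genes were higher in *Krt7* cells (3.02% of all genes) and 1 was lower (3.65%). The epithelial partners that were higher were led by *Krt19* (4.68 ± 0.58, 139 UMIs in all FSC), and *Cldn6* was higher too (3.6 ± 0.46, 183 UMIs). The gene that was lower was *Cgnl1* (−2.30 ± 0.40). No p is given for any of these, because they may have passed the filter on low counts only through the group where they were high. Between the sexes, 4 list genes were higher and 7 lower in male L of 30 tested, beside 17.6% of all genes called, and the lowest were *Jam2* (−2.68 ± 0.46) and *Pard3* (−2.21 ± 0.33, edgeR adjusted p = 4.57e-07). *Jam2* had 67 UMIs in all L and may have passed the filter only through the female lanes, so no p is given for it. In S, 4 were higher and 1 lower of 44, beside 10.1% of all genes, with *Pard6a* higher (1.85 ± 0.11, edgeR adjusted p = 2.11e-13) and *Ybx3* lower (−0.61 ± 0.12, edgeR adjusted p = 0.000254) in the male lanes. In FSC, 2 were higher and 1 lower of 59, beside 3.36% of all genes, among them *Cgnl1* (0.96 ± 0.15, edgeR adjusted p = 0.000201) and *Marveld3* (−0.74 ± 0.10, edgeR adjusted p = 4.64e-05), and in G *Spint2* was the 1 gene of 25 called (0.58 ± 0.10, edgeR adjusted p = 0.000431), beside 4.94% of all genes.

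Lastly, genes whose levels followed each member over the 18 sums of type and sex were sought by Pearson's r of log2(CPM + 10) among 13551 genes. These sums share libraries and depth, and r is a description. *Epcam* was followed by *Nudt11* (0.989), *Tceal3* (0.981) and *Spa17* (0.975), and *Cldn9* by *Dcaf12* (0.987), the angulin gene *Ildr1* (0.986) and *Meis3* (0.985). *Cldn3* was followed by *Rtn1* (0.940) and *Chl1* (0.937). For *Cldn7* the nearest were *Pdxp* (0.956), *Cspg5* (0.944) and *Lynx1* (0.923), and for *Cldn4* they were LOC102546599 (0.918), *Plxna3* (0.900) and *Entpd3* (0.888). *Tjp1* was followed by *Nr2f2*, a transcription factor of venous endothelium (0.961), with *Parva* and *Klhl23* (both 0.956), and *Cldn5* by *Gypc* (0.993), *Mall* (0.992) and *Chst7* (0.991). *Ocln* (*Sec14l2*, 0.906), *Cldn12* (*Eif2ak1*, 0.900) and *Cldn1* (*Depdc7*, 0.828) had less close partners. Among the members, r was 0.893 for *Epcam* and *Cldn3*, 0.887 for *Epcam* and *Cldn9* and 0.871 for *Tjp1* and *Cldn5*, but −0.02 for *Tjp1* and *Ocln*.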

How the data were processed

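Cells of 4 dispersed pituitaries per sex were pooled and loaded on 2 lanes each (10X Genomics, 3′ v2 kit). The deposited UMI counts were made by the authors with Cell Ranger 2.1 against a rat (Rnor6) transcriptome whose annotated 3′ ends they had lengthened, and lanes were combined after reads had been subsampled to equal mapped depth, so depths of lanes were partly equalized. No position of that build is used, and 0 columns were left unassigned.

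Counts were log10-transformed per cell after scaling, a threshold for each gene was found by Otsu’s method (256 bins), and cells were assigned by the study's marker genes, with erythrocyte markers read under the symbols *Hba1* and *Hba2* and *Col1a3* left out. Unassigned cells took the type of most of their 30 neighbours. Removed were 190 ambiguous cells, 275 with a high mitochondrial share, 331 outliers in genes or UMIs, 191 doublets (2.43%; 30% synthetic doublets, adjusted p of 0.01), 51 pericytes, 60 melanotrophs and 59 posterior pituitary cells.

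UMIs were summed per type and sex (16 sums, sex as a term, E left out) or, for the sexes and the FSC groups, per lane, and tested with edgeR 4.0.16 (TMM factors, low counts filtered at 10, Benjamini-Hochberg adjustment over all genes tested, limit 0.001, two-sided). DESeq2 1.42.0, library sizes, no filter, lane sums, thinning to 2000 UMIs, doublets kept, each lane left out and a limit of 0.05 were alternatives. For levels, totals without the hormone and globin genes were a further alternative. The SE after ± was computed from edgeR's output as the absolute log2 fold change divided by the square root of the F statistic. Scripts were tested on simulated data. Shares carry exact Clopper-Pearson 95% bounds, and a group without a count is given the limit that 3 UMIs or cells would allow. Both cover counting error only, and a fold against such a limit takes the higher level as counted. The 10 genes and all lists were chosen with earlier results of these data known. Named genes are all 10, up to 5 of the wider list per direction and contrast (2 for the sexes) by absolute fold, and up to 3 per member by r. For *Cldn3*, 1 such gene is not reported here. Leaving out FSC with HPC markers and L with melanotroph or FSC markers was chosen after seeing the data.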

Additional observations from a re-analysis of the deposited data

Results flagged for a closer look

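The male-female difference varied among the 6 pituitary types by the interaction test for *Epcam* (edgeR adjusted p = 9.64e-13), *Cldn9* (edgeR adjusted p = 1.01e-05) and *Cldn7* (edgeR adjusted p = 0.000299). For all 3 the difference was largest in L, where male lanes lay above female lanes, among the types in which the gene was tested. *Epcam* had a log2 fold change of 1.13 ± 0.09 in L and −0.32 ± 0.06 in FSC, *Cldn9* had 1.15 ± 0.15 in L and 0.07 ± 0.06 in C, and *Cldn7* had 2.75 ± 0.40 in L and −0.54 ± 0.31 in FSC. In L, *Cldn7* passed the filter on low counts only through the male lanes.

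Cells that the classification set aside also carried these genes. Their shares are set beside the exact interval of Le. Such intervals cover counting error over cells of 1 pool per sex, and cells are not replicates, so this is a description. In 60 melanotrophs of the intermediate lobe (56 of them male), the members above that interval were *Epcam* in 95%, *Cldn9* in 75.0%, *Cldn3* in 58.3%, *Cldn7* in 33.3%, *Cldn4* in 21.7% and *Tjp1* in 10.0%. The corresponding shares in Le were 2.74%, 1.46%, 0.547%, 0.365%, 1.64% and 0.182%. In 59 posterior pituitary cells, 4 members were above Le, with *Ocln* in 40.7% (10.2% in Le), *Tjp1* in 32.2%, *Epcam* in 11.9% and *Cldn5* in 6.78% (0 of 548 Le, which allows up to 0.547%). In 51 pericytes, 2 members were above Le, *Tjp1* in 17.6% and *Cldn1* in 13.7% of cells, the latter with 15 UMIs in 7 cells, while *Epcam*, *Cldn3*, *Cldn4*, *Cldn7* and *Cldn9* were found in none (up to 5.88% allowed). Median depths were 10600 UMIs in the melanotrophs, 8908 in the posterior pituitary cells and 6698 in the pericytes, against 6500 in Le, and shares rise with depth. How many of all genes lay above Le in the same way was not computed.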

How the results depend on the processing

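The counts of members called moved by over 1.5 times under these alternatives, and the cause was not tested. The share of all genes called under each alternative was not computed, so these counts cannot be set against it. At a limit of 0.05, 7 members were called for pituitary types over Le and EC in place of 4, 3 for G and 2 for L in place of 1, 1 for T in place of 0, 5 for FSC between the sexes in place of 1, 6 for S between the sexes in place of 2, and 5 for the interaction in place of 3. With cells thinned to 2000 UMIs, which leaves fewer counts, 3 were called for EC in place of 6, 0 for G and for S among the HPC, 0 for the sexes in FSC and in S, 1 for the interaction and 2 for the FSC groups in place of 5. With no filter on low counts, 2 were called for G, 1 for T, 2 for L and 0 for FSC between the sexes. Sums per lane, which add no independent pool, gave 3 for G, 1 for T and 2 for L. DESeq2 gave 2 for G and 0 for the sexes in FSC and in S. Library sizes without TMM factors gave 1 for S among the HPC and 1 for G between the sexes, and took the median of all genes from 0.11 to 0.40 for FSC over HPC, from 0.04 to −0.25 for L over the other HPC and from 0.02 to 0.67 for the sexes in L. Leaving out 1 lane at a time gave 0 to 1 for G, 0 to 3 for FSC and 0 to 1 for S between the sexes, and 1 to 2 for the interaction. The other 154 values of this kind stayed within 1.5 times. Of the values for single genes, 1384 kept their side of the limit or stayed within the spread, 49 passed it newly, 40 no longer passed it and 14 levels or shares moved by more than their spread. Among the levels that moved were *Cldn9* in C (470.5 CPM), *Cldn3* in L (131.9) and *Cldn4* in S (35.8), with hormone and globin genes left out of the totals. No value called with TMM factors turned direction. *Cldn3* between the sexes in L, not called at −0.52, stood at 0.14 with library sizes and was called lower in males without the male lane of 2085 cells (−0.71, edgeR adjusted p = 0.000185). The rare genes *Cldn1*, *Cldn5* and *Cldn7* and the 88 T limit the depth. No paired analysis was possible because the replicate numbers of the labels cannot be tied to lanes and the sexes are separate pools; the FSC groups were compared within lanes.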

Other observations

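The smallest FSC cluster (33 cells, 6 to 11 per lane) was led by the cell division genes *Cks2*, *Cdca3* and *Top2a*. *Cldn3* was detected in 39.4% and *Tjp1* in 36.4% of these cells, *Epcam* in 48.5%, and *Cldn4* and *Cldn7* in 0 of 33, with a median depth of 13270 UMIs. The 23 FSC that expressed both *Krt7* and *Gpha2* had *Epcam* at 687 to 1289 CPM and *Cldn3* at 59.8 to 190, with *Cldn12* in 0 of 23 cells, but they number 2 to 9 per lane.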
